A study of Mus musculus with 6 samples.

Results

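The neighbouring microRNA genes of the imprinted mouse region 12qF1 named Mir679, Mir666, Mir543, Mir495 and Mir667 were examined in 2 classes of cortical projection neuron. Assays were chosen by name, as every assay on the cards for miR-679, miR-666, miR-543, miR-495 or miR-667 of either strand and of either rodent name. This gave 6 of the 584 microRNA assays, and earlier results of these data were known when the set was chosen. These 6 were the mouse assays for miR-679, miR-666-5p, miR-543, miR-495 and miR-667 and a rat-named assay for miR-543. Subcerebral projection neurons (SCPN), whose axons run down to brainstem and spinal targets, gave 3 samples. They were set against 3 samples of callosal projection neurons (CPN), which connect the hemispheres and carry the word control in the labels. All 6 samples were total RNA from purified cell bodies of mice at postnatal day 1. Strain, genotype, sex, the way the neurons were labelled and sorted, and whether samples came from separate animals or litters are not stated in these sources. Every p-value below therefore speaks only for the variation among the 6 samples, part or all of which may be technical. Since these are bulk samples, fewer cells of a type and less RNA per cell cannot be told apart.

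The 12qF1 region, also called Dlk1-Dio3, carries one of the largest microRNA clusters of mammals, and its microRNAs are expressed from the chromosome inherited from the mother. Each microRNA gene gives a hairpin from which a 5′ and a 3′ strand can be cut, and a mature strand finds messenger RNAs mainly through its seed, the bases just behind its 5′ end. Many microRNAs of the region are abundant in brain, and miR-495 is known there as a regulator of the mRNA for brain-derived neurotrophic factor. For miR-543, work in mouse cortex has tied the microRNA to neural stem cells and N-cadherin. No role is given here for miR-666, miR-667 or miR-679.

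In the RefSeq gene table of GRCm38.p6 the genes lie on the plus strand between Mir494 and Mir376c in the order Mir679, Mir666, Mir543, Mir495 and Mir667, with Mir1193, not analysed here, between the first 2 of them. Gaps are short, with 74 bases between Mir666 and Mir543, 1420 between Mir543 and Mir495, 1189 between Mir495 and Mir667 and 2620 from Mir667 to Mir376c. The cards name miR-679, miR-543, miR-495 and miR-667 without a strand. These plain names are taken here, from background knowledge of miRBase naming, as the 5′ strand of miR-679 and the 3′ strands of the others. The sources used here do not state the strands, so the sequences and seeds given for these 4 rest on that reading. All 5 mature sequences are shown because the seeds differ while a pair of the microRNAs shares its 3′ end. They come from RefSeq on GRCm38.p6, written 5′ to 3′, with the seed (bases 2 to 8) in capitals.
miR-679-5p, chr12:109715587-109715608: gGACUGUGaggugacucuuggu
miR-666-5p, chr12:109717103-109717124: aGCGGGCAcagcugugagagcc
miR-543-3p, chr12:109717304-109717325: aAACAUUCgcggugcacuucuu
miR-495-3p, chr12:109718795-109718816: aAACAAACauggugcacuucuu
miR-667-3p, chr12:109720061-109720083: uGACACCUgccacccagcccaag

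No seed was shared between these 5. Of the other mouse microRNAs in the same table, 2 had the seed of miR-495-3p (miR-1192 and miR-12200-5p), 1 that of miR-679-5p (miR-7221-3p) and 0 those of miR-666-5p, miR-543-3p and miR-667-3p. None of those 3 microRNAs had an assay on these cards. Base composition differed, with 68.2% G and C in miR-666-5p, 65.2% in miR-667-3p, 54.5% in miR-679-5p, 45.5% in miR-543-3p and 36.4% in miR-495-3p. MiR-495-3p and miR-543-3p were identical at 18 of 22 positions, and differed by A6U, A7U, A9G and U10C (positions from 1 at the 5′ end, the base of miR-495-3p first). Their last 12 bases were the same run, which ends only these among 1674 different mature sequences of the table, while the next longest run shared within the set was 7 bases, between miR-679-5p and miR-666-5p. The shared run is in capitals here.
miR-495-3p: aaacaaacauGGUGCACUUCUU
miR-543-3p: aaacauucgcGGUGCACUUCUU

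Ahead of the 3′ strand, the hairpins of this pair also share 2 runs of 11 bases. The RefSeq hairpins of both genes are given with the 3′ strand in capitals, at chr12:109718754-109718816 for Mir495 and chr12:109717258-109717333 for Mir543. Stem-loop assays of the TaqMan kind start reverse transcription at the 3′ end of the mature strand, the part these microRNAs share. The primers of the cards are not described in these sources, and how far the assay for one of them also reads the other was not tested.
Mir495: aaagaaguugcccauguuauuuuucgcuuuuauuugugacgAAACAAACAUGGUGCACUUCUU
Mir543: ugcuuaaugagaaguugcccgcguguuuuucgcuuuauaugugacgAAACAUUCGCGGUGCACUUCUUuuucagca

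Each well of a card is 1 quantitative PCR, read as a threshold cycle (Ct), the cycle at which fluorescence passes a threshold, and more template gives a lower Ct. All 6 assays were on card A, where every microRNA had 1 well, so they have no technical repeat. On card B, duplicate wells in the span of Ct 21 to 34 differed by a median of 0.167 to 0.388 cycles per sample. The mean Ct of the 159 card A assays found in every sample was 21.8, 27.1 and 27.2 in SCPN replicates 1, 2 and 3, against 22.6, 28.1 and 24.7 in CPN replicates 1, 2 and 3. Both samples numbered 1 thus held more template than the others of their group. Levels below are the negative Ct after that mean was taken off, so 0 is the card mean and 1 unit is 1 cycle, a log2 unit at full PCR efficiency. PCR efficiency can differ between assays, so the order of levels between microRNAs is approximate.

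Neurons of both classes carried brain microRNAs: 6 of 6 assays on the neuron list (miR-9, miR-9*, miR-124, miR-137, miR-138 and miR-218) were found often enough to be tested, and their summed linear level was 487 to 843 in SCPN samples, against 278 to 874 in CPN samples. The neuron list also named miR-128a, which matched no assay under that exact name and is not in the sum. The assay named miR-128 was lower in every SCPN sample than in every CPN sample (means 2.25 and 2.81), as were 6.21% of all tested assays. The lists hold no microRNA that marks SCPN apart from CPN, so the class labels could not be checked. Summed levels of 4 vascular assays were 4.70 to 23.1 in SCPN and 3.23 to 5.55 in CPN, and those of 7 microglia and blood assays were 1.72 to 7.04 in SCPN and 2.71 to 4.01 in CPN, with miR-142-5p at 0 in all samples. Those of 5 muscle assays were 0.0703 to 0.152 in SCPN and 0.253 to 0.279 in CPN, with miR-133b at 0 in all samples. The 2 tested muscle assays went opposite ways, with a difference of -3.67 ± 0.76 for miR-133a and 2.85 ± 1.05 for miR-206 (SE), at unadjusted limma p of 0.00155 and 0.0278 and adjusted p of 0.24 and 0.50. The 2 oligodendrocyte assays reached at most 0.00743 in SCPN and 0.0211 in CPN, and miR-451, an erythroid microRNA, was found in 1 SCPN sample and in 0 CPN samples. Their part in the results below was not tested.

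Of the 6 assays, 4 gave a Ct under 35 in every sample and 2 gave none in any. MiR-679 and the rat-named miR-543 assay were undetermined in all 3 SCPN and all 3 CPN samples. On the scale used here the limit of Ct 35 lay at -13.22, -7.86 and -7.77 in SCPN replicates 1, 2 and 3, against -12.41, -6.93 and -10.26 in CPN replicates 1, 2 and 3, which bounds how little of them could have been seen. The mouse-named miR-543 assay was detected in the same samples, each assay in its own well, so the 2 assays named for miR-543 went apart in all 6 samples. The sequence read by the rat-named assay was not analysed here.

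Across all assays, 0 of 306 tested passed an adjusted p of 0.05 (limma with Benjamini-Hochberg adjustment, background 0%), and 25 had an unadjusted p under 0.05. The mean of SCPN was higher in 4 of the 4 detected members, against 45.1% of all tested assays. With scaling on control RNAs the count was again 4 of 4, but there 82.0% (deposited scaling) and 90.2% (controls without U6) of all tested assays had the higher mean in SCPN, so the count is near that background. In 3 of the 4, miR-666-5p, miR-543 and miR-495, the lowest SCPN sample exceeded the highest CPN sample, against 8.82% of all tested assays. With the card median as the scale it was 2 of the 4. With control RNAs it stayed 3, but the share over all tested assays on those scales is not given here. In 0 of the 4 did every SCPN sample lie below the CPN samples (6.21% of all tested). At an unadjusted p under 0.05 with a higher mean in SCPN there were 2 of the 4, miR-666-5p and miR-495, against 6.54% of all tested assays, and 0 with a lower mean, against 1.63%. Where tested alone, each of these 4 can reach an exact permutation p of no less than 0.1.

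**Figure D1:**
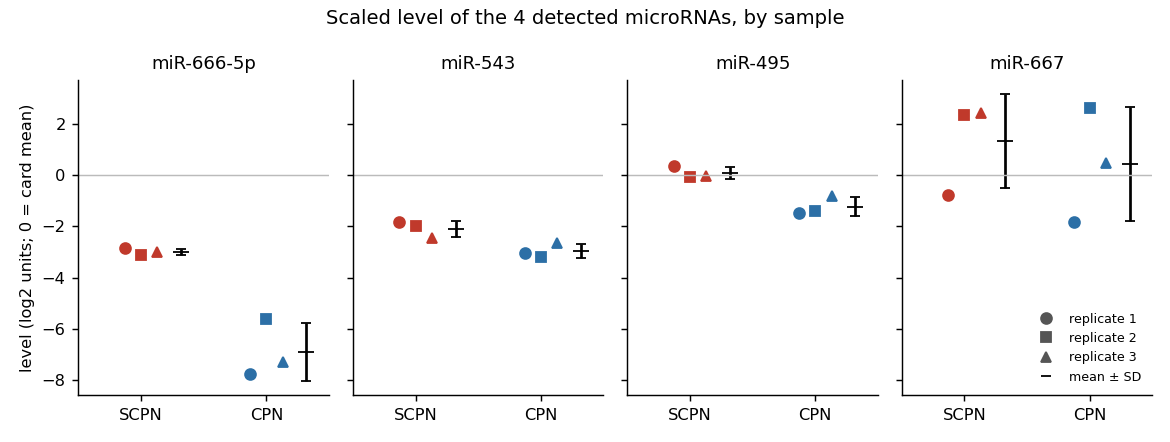
Scaled levels (log2 units, y axis, 0 is the card A mean) of miR-666-5p, miR-543, miR-495 and miR-667 in each SCPN and CPN sample, with symbols for the replicate number and bars for the mean ± SD (n = 3 each). The SCPN samples of miR-666-5p sit between -3.12 and -2.86, far above the CPN samples at -7.75 to -5.61, while the groups of miR-667 overlap.

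MiR-666-5p, the 5′ strand with the seed GCGGGCA, differed most. Its Ct was 24.64, 30.25 and 30.23 in SCPN replicates 1, 2 and 3, against 30.34, 33.68 and 32.03 in CPN replicates 1, 2 and 3. CPN replicate 1 thus needed about as many cycles as SCPN replicates 2 and 3, although its RNA gave the lower card mean. These 3 Ct values lay closer together than duplicate wells on card B. The median gaps there were 0.214 cycles in CPN replicate 1 and 0.26 and 0.330 in SCPN replicates 2 and 3. Scaled, the levels were -2.86, -3.12 and -2.999 in SCPN and -7.75, -5.61 and -7.29 in CPN. The SCPN samples lay within 0.26 units of each other, CPN replicate 2 was the highest of its group, and the groups did not overlap.

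The means of miR-666-5p were -2.99 ± 0.13 in SCPN and -6.88 ± 1.13 in CPN (SD, n = 3 each), a difference of 3.89 ± 0.70 (SE, 95% interval 2.26 to 5.53), or 14.8-fold at full PCR efficiency. It had the smallest unadjusted p of the 306 tested assays, 0.000686, and the 4th largest difference. After adjustment over all assays the limma p was 0.21, and the exact permutation p was 0.1, the smallest possible. Same-numbered samples differed by 4.89, 2.49 and 4.29. The adjusted p was 0.029 with sample weights and 0.052 without CPN replicate 2, and it lay between 0.057 and 0.57 under the other alternatives. In the authors' deposited table miR-666-5p had a ratio of 35.1, the highest of 240 assays, where the median ratio of that table was 1.70.

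MiR-495, with the seed AACAAAC, was the next in order of difference. Its Ct was 21.42, 27.23 and 27.24 in SCPN replicates 1, 2 and 3, against 24.08, 29.48 and 25.54 in CPN replicates 1, 2 and 3. The scaled levels were 0.37, -0.088 and -0.017 in SCPN and -1.49, -1.41 and -0.80 in CPN. MiR-495 thus stood near the card mean in SCPN and below it in every CPN sample, with CPN replicate 3 the closest to the SCPN samples. The means were 0.087 ± 0.24 in SCPN and -1.23 ± 0.38 in CPN (SD, n = 3 each), a difference of 1.32 ± 0.54 (SE, 95% interval 0.050 to 2.59), or 2.50-fold. The unadjusted p was 0.0435 and the limma adjusted p over all assays 0.58, so this difference was not beyond the error once all assays were counted. The unadjusted p was 0.05 or more under 10 of 21 alternatives, among them 5 of the 6 that leave out 1 sample (0.080 to 0.11), the card median (0.093), 1 mean over both cards (0.062) and sample weights (0.054).

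MiR-543, with the seed AACAUUC, stood lower than miR-495 in every sample. Its Ct was 23.62, 29.12 and 29.66 in SCPN replicates 1, 2 and 3, against 25.62, 31.27 and 27.39 in CPN replicates 1, 2 and 3. The scaled levels were -1.83, -1.98 and -2.44 in SCPN and -3.03, -3.20 and -2.65 in CPN. The groups did not overlap, but SCPN replicate 3 and CPN replicate 3 were only 0.21 units apart, within the 0.330 and 0.297 cycles by which duplicate wells of these samples differed on card B. The means were -2.08 ± 0.31 in SCPN and -2.96 ± 0.28 in CPN (SD, n = 3 each), a difference of 0.87 ± 0.54 (SE, 95% interval -0.39 to 2.13). The limma adjusted p was 0.79, and the interval spans both no difference and one of 2 units.

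MiR-667, with the seed GACACCU, varied more within the groups than between them. Its Ct was 22.57, 24.80 and 24.79 in SCPN replicates 1, 2 and 3, against 24.43, 25.44 and 24.25 in CPN replicates 1, 2 and 3. The scaled levels were -0.78, 2.34 and 2.44 in SCPN and -1.83, 2.64 and 0.49 in CPN. The sample numbered 1 was the lowest of its group in both classes, CPN replicate 2 was the highest of all 6, and the groups overlapped. The means were 1.33 ± 1.83 in SCPN and 0.43 ± 2.23 in CPN (SD, n = 3 each), a difference of 0.90 ± 1.32 (SE, 95% interval -2.19 to 3.99, limma adjusted p 0.90). It was -0.23 without CPN replicate 1, 1.96 without SCPN replicate 1, 1.94 without CPN replicate 2, and 0.41 and 0.35 without SCPN replicates 2 and 3.

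The unscaled Ct of miR-667 spanned 2.87 cycles over the 6 samples, the smallest span of the 159 card A assays found in every sample. The card mean itself spanned 6.29 cycles, and the spans of miR-543, miR-495 and miR-666-5p were 7.66, 8.06 and 9.04. Per cycle of card mean, the Ct of miR-667 moved by 0.31 cycles, against 1.03 for miR-495, 1.05 for miR-543 and 0.80 for miR-666-5p, with a median of 1.03 over the 159 assays. Only 2 of the 159 had a lower slope. On the scaled level, the 3 samples with a card mean Ct over 27 were thus the 3 highest, at 2.34 to 2.64, and the 2 with the lowest card mean Ct were the 2 lowest. These slopes are descriptions over 6 samples, and the part of the template amount in them was not tested.

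**Figure D2:**
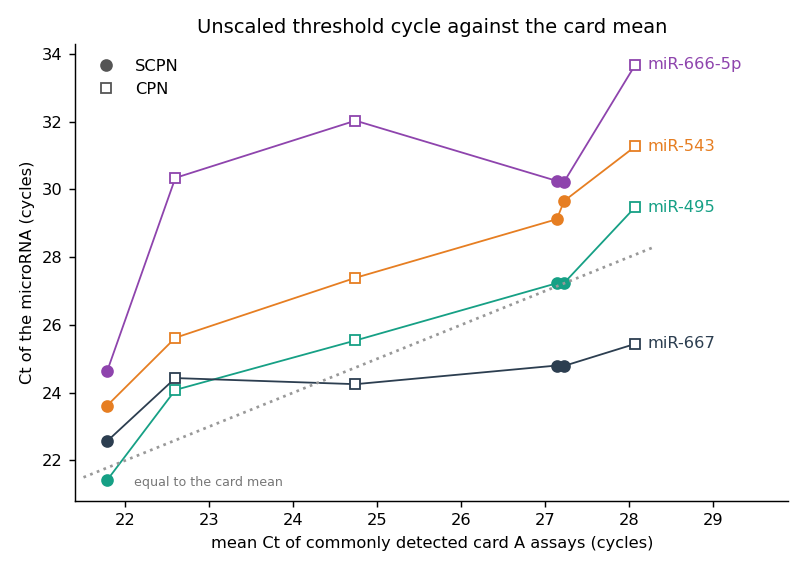
Unscaled Ct of the 4 detected microRNAs (cycles, y axis) against the mean Ct of the commonly detected card A assays of the same sample (cycles, x axis), with filled circles for SCPN and open squares for CPN; the dotted line marks a Ct equal to the card mean. MiR-495 and miR-543 run alongside the dotted line, miR-667 is nearly flat at 22.57 to 25.44, and miR-666-5p is lower in SCPN samples than in CPN samples of like card mean.

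In SCPN the order of mean levels was miR-667, miR-495, miR-543 and miR-666-5p, and it was the same in CPN. MiR-667 exceeded miR-495 in 4 of the 6 samples, so their order did not hold beyond the spread. MiR-495 exceeded miR-543, and miR-543 exceeded miR-666-5p, in 6 of 6 samples. Differences between microRNAs of the same sample need no scaling, since the card mean drops out, and 6 such pairs were compared after the levels had been seen. These pairs are built from the same 4 assays and are not independent. Those with miR-666-5p all reuse its single-well values.

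MiR-495 minus miR-543 was 2.20, 1.90 and 2.42 cycles in SCPN replicates 1, 2 and 3, against 1.54, 1.79 and 1.85 in CPN replicates 1, 2 and 3. This pair, which shares its 3′ end, kept its distance within 0.88 cycles over all 6 samples, the smallest span of the 6 pairs, and the SCPN samples were all above the CPN samples, by 0.45 cycles in the mean. MiR-543 minus miR-666-5p was 1.02, 1.13 and 0.56 cycles in SCPN and 4.72, 2.41 and 4.64 in CPN, so miR-666-5p lay close under miR-543 in SCPN and far under it in CPN. MiR-495 minus miR-666-5p was 3.22, 3.03 and 2.98 in SCPN and 6.26, 4.20 and 6.49 in CPN. For these 3 pairs, and for miR-667 minus miR-666-5p, where the means were 4.32 ± 1.95 in SCPN and 7.31 ± 1.23 in CPN (SD, n = 3 each), the exact two-sided permutation p was 0.1, the smallest possible, which became 0.15 once adjusted over the 6 pairs. MiR-667 minus miR-495 and miR-667 minus miR-543 overlapped between the groups, with exact permutation p of 0.9 and 1.

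**Figure D3:**
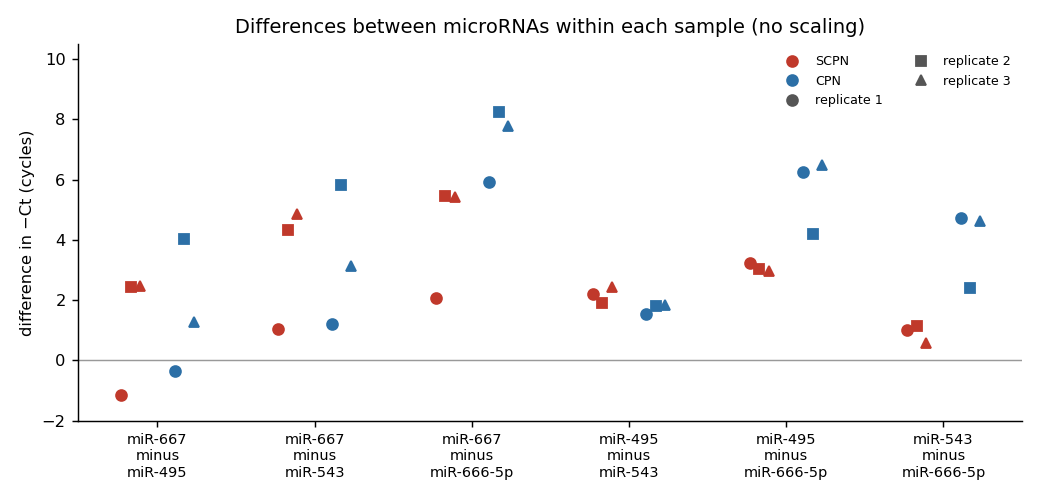
Difference in negative Ct between 2 microRNAs of the same sample (cycles, y axis) for the 6 pairs of detected microRNAs (x axis), SCPN in red and CPN in blue, with symbols for the replicate number. The 3 pairs that end in miR-666-5p are lower in every SCPN sample than in every CPN sample, and miR-495 minus miR-543 is held within 1.54 to 2.42.

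Set in their region, the 4 detected microRNAs stood among 43 tested assays of 12qF1. The other 39, from a list written with earlier results of these data known, had 38 higher and 1 lower mean in SCPN, a median difference of 1.57, 12 at an unadjusted p under 0.05 and 0 past the limma adjusted p. Of the 39, 16 (41.0%) had every SCPN sample above every CPN sample, against 3.04% of the 263 tested assays outside the region. By stretch the median difference was 1.43 over 14 proximal assays (miR-770 to miR-370), 1.95 over 8 from miR-379 to miR-494, 1.11 over the 4 members and 1.57 over 17 from miR-376c to miR-410, against -0.27 outside the region. Since the microRNAs of the region are among those that set the card mean, the last value does not show that other microRNAs fell.

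Along the region the differences did not run smoothly. MiR-666-5p ranked 4th of the 43 by difference, behind miR-485 (4.21 ± 1.26), the rat-named miR-136* (4.05 ± 0.98) and miR-376b* (4.03 ± 1.60, SE), which were on card B. MiR-485 was found in 1 of 3 CPN samples and the rat-named miR-136* in 2 of 3, so both differences depend on the Ct limit, while miR-666-5p was measured in every sample. MiR-495, miR-667 and miR-543 ranked 26th, 37th and 38th. The lowest were miR-329 (-0.051 ± 1.21), miR-494 (0.20 ± 0.81) and miR-154* (0.68 ± 1.33, SE). MiR-494, the flanking gene on one side, was at -5.18, -3.14 and -2.91 in SCPN, against -4.78, -3.18 and -3.86 in CPN, and the groups overlapped. MiR-376c, the flanking gene on the other side, was at 2.80, 0.27 and 0.87 in SCPN, against 1.004, -1.48 and -0.67 in CPN, a difference of 1.70 ± 0.93 (SE) with overlapping groups. MiR-376c* was found in 1 SCPN sample and was not tested.

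**Figure D4:**
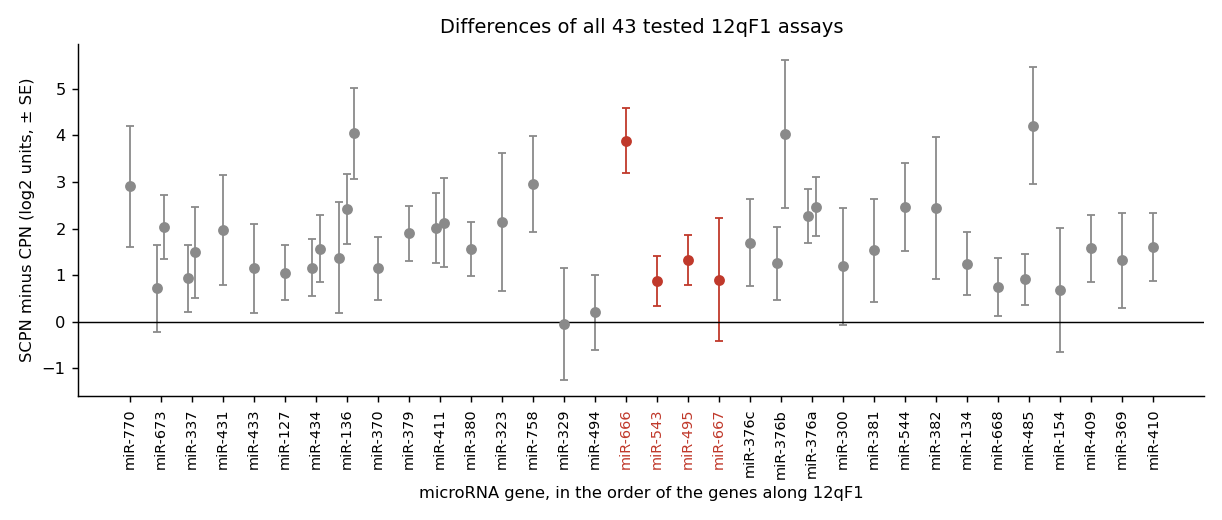
Difference SCPN minus CPN (log2 units, y axis, bars ± SE of the fit) of the 43 tested 12qF1 assays in the order of their genes (x axis; several points are several assays of a gene), with the members in red. MiR-666 stands at 3.89 beside miR-543, miR-495 and miR-667 at 0.87 to 1.32, and miR-494 on its other side is at 0.20.

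To ask whether a member differed from its region, levels were taken relative to the mean of 24 other 12qF1 assays of card A found in every sample (4 on card B), and limma was run again on all 306 assays. On that scale miR-666-5p was at -2.48, -2.78 and -2.91 in SCPN, against -5.59, -3.77 and -5.70 in CPN, again with no overlap (as for 0.654% of all tested assays). Its difference was 2.30 ± 0.74 (SE, 95% interval 0.59 to 4.01) with an unadjusted p of 0.0148, and it was the single assay with an unadjusted p under 0.05 and a higher mean in SCPN (0.327% of all tested). The limma adjusted p was 0.082, and 0.042 with the replicate block. On this scale 41.8% of all assays had an unadjusted p under 0.05 with a lower mean in SCPN, since the subtracted reference was itself higher in SCPN. The shares of 0.327% and 0.654% over all assays are therefore small by construction and do not measure how rare such a rise is. The adjustment counts those assays too, and the p of miR-666-5p ranked 51st. Its adjusted p of 0.082 and 0.042 are thus smaller than they would be without those assays. They do not measure how far miR-666-5p stands from its region. The block called 130 of 306 assays at the adjusted threshold, against 0 without it, which moves the adjusted p of every assay. Without CPN replicate 3 the unadjusted p of miR-666-5p was 0.057, and with the median of the reference assays it was 0.088.

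The other members were not told apart from their region. The differences on that scale were -0.27 ± 0.60 for miR-495 (95% interval -1.67 to 1.12), -0.72 ± 0.62 for miR-543 (-2.16 to 0.72) and -0.69 ± 1.26 for miR-667 (-3.61 to 2.23, SE), with limma adjusted p of 0.72, 0.36 and 0.67. MiR-543 was lower in every SCPN sample than in every CPN sample on this scale, at -1.46, -1.65 and -2.35 in SCPN, against -0.87, -1.36 and -1.06 in CPN, as were 44.8% of all tested assays, whereas on the card mean scale its SCPN samples were the higher ones.

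The assays whose levels moved most like each member were found among 220 others measured in every sample, by the root mean square distance between levels centred on each assay's mean over the 6 samples. For miR-495 these were miR-138 (0.28), miR-668 (0.39) and miR-125b* (0.40), where the median distance was 1.12. For miR-543 they were miR-138 (0.22), miR-22 (0.27) and miR-340-5p (0.33), and miR-495 and miR-543 lay 0.29 apart. MiR-138, a brain microRNA outside the region known from dendrites, had a level of 7.28 ± 0.13 in SCPN and 6.26 ± 0.20 in CPN (SD, n = 3 each). For miR-666-5p the nearest were miR-376a (0.96), miR-193b (1.17) and miR-365 (1.18), and their differences of 2.27, 1.89 and 1.89 were smaller than its own. These distances were larger, but the measure grows with how much an assay itself varies. The median distance was 2.27 for miR-666-5p, against 0.99 for miR-543 and 1.95 for miR-667. For miR-667 the nearest were miR-383 (0.40), miR-433 (0.59) and miR-378 (0.71), with differences of 0.44, 1.14 and 0.53. The distances are descriptions over 6 samples that share their card means.

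With the card median, quantile normalization, 1 mean over both cards, the common assays outside 12qF1 or control RNAs as the scale, the mean of SCPN stayed the higher one in all 4 detected members. Relative to the other 12qF1 assays, as given above, it was the higher one in miR-666-5p and the lower one in the other 3. With the authors' deposited scaling on control RNAs the median of all assays moved by 0.95, and with the snoRNA, U87 and Y1 controls by 1.14. The difference minus that median was 4.26 for miR-666-5p, 1.69 for miR-495, 1.27 for miR-667 and 1.24 for miR-543 with the deposited scaling, and 4.15, 1.58, 1.16 and 1.13 with the other controls, against 3.97, 1.40, 0.98 and 0.95 on the card mean. All 4 are on card A, where control scaling moves every difference by the same amount, so the distances between them could not change. The median runs over both cards, whose shifts can differ. The larger values with control scaling thus do not show that the members stood out more. On the card mean the controls themselves differed by -1.53 to -1.14 between SCPN and CPN on card A. In the authors' deposited table, which follows that scaling, the ratios of miR-495, miR-667 and miR-543 were 5.90, 4.42 and 4.34.

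**Figure D5:**
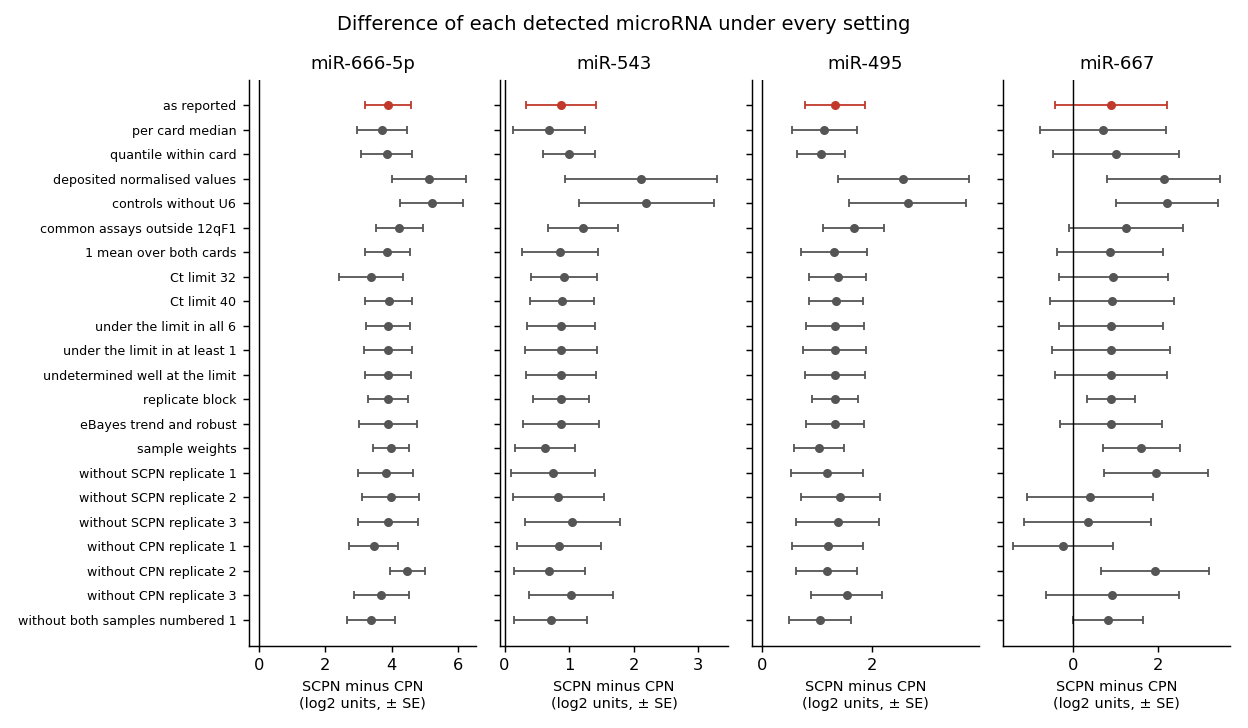
Difference SCPN minus CPN (log2 units, x axis, bars ± SE) of miR-666-5p, miR-543, miR-495 and miR-667 as reported (red) and under each alternative setting (grey, y axis). MiR-666-5p runs from 3.37 to 5.22 and stays apart from 0, and miR-667 turns to -0.23 without CPN replicate 1.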

How the data were processed

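MicroRNA was extracted with the miRVana kit, per the labels' protocols, and run on TaqMan rodent cards. The deposited non-normalized sheet gives the authors' Ct for 768 wells. The deposited normalised sheet was found, from the raw sheet, to hold Ct less a geometric mean over the controls of the same card and sample. The authors' deposited ratio was reproduced from that sheet as SCPN over CPN on the scale of 2 to the power of the mean cycle difference in all 194 assays with 1 well (within 0.01 log2). How thresholds were set is not given in the sources used here.

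From the raw Ct, wells of an assay were averaged, values of 35 or more or undetermined were set to 35, and the card mean of commonly detected assays (159 on card A, 65 on card B) was subtracted. Assays under 35 in at least 3 of 6 samples were tested (306) by two-sided tests in limma 3.58.1 (R 4.3.3) and adjusted after Benjamini and Hochberg. The fit was tested on simulated data. No read depth exists, and precision rests on 3 samples per group. Same-numbered samples deviated together from their group means over the tested assays (correlations 0.55, 0.29 and 0.30). SCPN replicate 3, however, correlated slightly more with CPN replicate 2 (0.32). The labels do not say what a number shares, so whether the numbers pair the samples is not settled. The main fit and the permutation tests treated the samples as unpaired, and a replicate block was run as an alternative.

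Members and lists were chosen with earlier results of these data known. Named assays are the members, the flanking genes, the 3 highest and 3 lowest other 12qF1 assays, the 3 nearest assays by level, the controls and the markers. The alternatives were other scalings, Ct limits, filters, well averaging, moderation, weights, a replicate block and leaving out each sample.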

Additional observations from a re-analysis of the deposited data

How the results depend on the processing

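MiR-666-5p, miR-495 and miR-543 kept a higher mean in SCPN under all 21 alternatives, from 3.37 to 5.22, from 1.03 to 2.64 and from 0.62 to 2.20. MiR-667 did so under 20, and without 1 sample it ranged from -0.23 (CPN replicate 1) to 1.96; relative to the other 12qF1 assays it ranged from -1.67 to 0.36, at 0.31 without SCPN replicate 1 and 0.36 without CPN replicate 2. The replicate block, the moderation, the detection filters and the setting of undetermined wells left these mean differences unchanged, so they could not alter the direction. Scaling on control RNAs or on assays outside 12qF1 raised every card A difference by the same amount. Members with every SCPN sample above every CPN sample were 3, and 2 with the card median. An adjusted limma p under 0.05 was reached by 0 of 306 assays, and by 1, miR-666-5p, with sample weights. At an unadjusted p under 0.05 there were 25, against 51 with the replicate block, 42 with sample weights and 14 to 32 without 1 sample. Of the members 2 had such a p, 3 had it with quantile normalization (miR-543 at 0.0482), and 1 had it with the card median, with 1 mean over both cards, with assays under the limit in at least 1 sample, with sample weights and without both samples numbered 1 (chosen after seeing the data); without 1 sample it was 1 or 2. Relative to the other 12qF1 assays 0 assays passed, against 122 with their median as reference, 130 with the replicate block and 0 to 2 without 1 sample, and the members with an unadjusted p under 0.05 were 1, 0 with the median and 0 to 1 without 1 sample. The replicate block changed no call of a member but that of miR-666-5p relative to the region (limma adjusted p 0.042). That adjusted p also counts the assays moved by the reference. The causes were not tested. The strand comparison was not run, since each gene had 1 strand on the cards. Ct values near 35 and 1 well per assay limit miR-666-5p in CPN and the undetermined assays.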

Other observations

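Among the 159 card A assays found in every sample 7 had a Ct that moved by less than 0.5 cycles per cycle of card mean. They were miR-574-3p (0.049), miR-323-3p (0.30), miR-667 (0.31), miR-770-3p (0.34), miR-383 (0.43), miR-680 (0.43) and miR-184 (0.48). Of these, miR-667, miR-323-3p and miR-770-3p come from 12qF1, which gave 28 of the 159 assays. They were looked up after their values had been seen.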
